A study of Mus musculus with 13 samples.

Results

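Proprioceptive sensory neurons (pSNs) of dorsal root ganglia (DRG) were compared at postnatal day (p) 12 between the 16 neurons that the authors' clustering placed in the clusters marked by *Calb2* (cluster 2, with 8 neurons, and cluster 5, with 8 neurons) and the 138 neurons of the remaining p12 clusters (1, 3 and 4). Members were chosen by cluster number alone, and the 154 neurons are all the p12 cells that the authors kept, out of 586 kept cells in the series. Below, "*Calb2* neurons" are the 16 and "the others" are the 138. Each neuron was a tdTomato-positive (tdT+) cell sorted by fluorescence into a well of a 96-well plate, and the measurement was the number of unique molecular identifiers (UMIs, tags that count each captured mRNA molecule once) per gene. All p12 animals carried PV:Cre+/-;Rx3:Flp+/-;Ai65+/-, a reporter that labels any cell that has at some time expressed both parvalbumin (PV) and Runx3, so that a cell which has since lost either one stays labelled. The adult and p0 plates used for comparison had the same genotype, whereas the e14.5 plates, used for *Calb2* levels alone, carried TrkC:tdTomato, a reporter that at that stage also marks afferents of Merkel cells. No group was treated. Sorting also required high Calcein Blue and no Sytox red signal, which selects living cells. DRG of 4 animals of either sex supplied the p12 cells. Which animal contributed to which plate is not given in the sources used here, so p-values measure the spread between plates, which may be technical.

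pSNs innervate skeletal muscle. Group Ia and group II afferents end on muscle spindles (MSs), which report muscle length, and group Ib afferents end on Golgi tendon organs (GTOs), which report load. *Calb2* encodes calretinin, a calcium-binding protein with EF hands that is found in several kinds of sensory neuron, and among muscle afferents it is used as a marker of spindle endings.

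The p12 plates fell into 2 pairs that share no cluster. On replicate 1, 5 of 12 kept neurons belonged to cluster 2 and the other 7 to cluster 3, and on replicate 2 the numbers were 3 and 10. Replicate 3 held 6 cluster 5 neurons among 67, and replicate 4 held 2 among 62, with clusters 1 and 4 making up the rest. *Calb2* neurons were thus 32% of the kept neurons on the first pair (exact binomial 95% interval 14.9 to 53.5%) and 6.2% on the second (2.72 to 11.9%), intervals that cover counting error only. On the first pair 84 and 83 of 96 wells had been left out by the authors, against 29 and 34 on the second, and the part of this in the shares was not tested. The 4 plates reused all 96 well barcodes, and the 16 neurons carried 15 different ones, 1 of them on more than 1 plate. Per plate, the UMIs of all neurons on a side were added up and the sums compared within plates, which gives 4 sums a side, of 2 to 6 neurons for the *Calb2* clusters.

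*Calb2* neurons were the deeper side on every plate. The mean number of UMIs per *Calb2* neuron was 81712, 66184, 52334 and 39270 on replicates 1 to 4, against 53345, 48166, 26082 and 21169 for the others. The ratio ran from 1.37 to 2.01, and the mean difference was 22684 UMIs. An exact two-sided sign-flip permutation test over the 4 plates gave a p of 1 in 8, the smallest that 4 plates allow. *Calb2* neurons also had on average 1413 more genes with a UMI (the same smallest p, higher on 4 of 4 plates). Cluster 1 was the shallowest, with a median of 16185 UMIs, and cluster 2 the deepest, with 74067. Depth therefore moved with the comparison, and its part in the results below was not tested beyond the values given after thinning each neuron to 7000 UMIs, which kept all 16 *Calb2* neurons and 136 of the others.

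**Figure D1:**
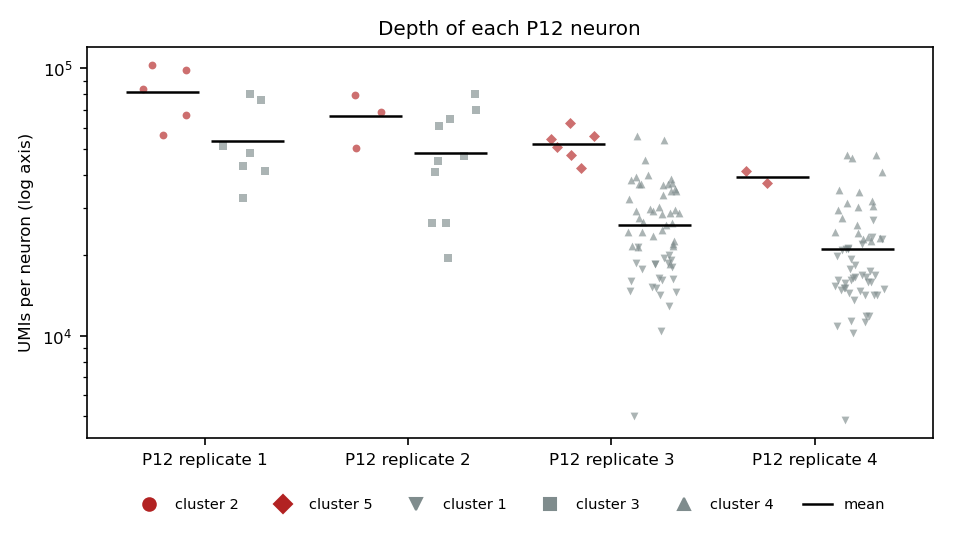
UMIs per neuron (log axis) for every p12 neuron, by plate; marker shape gives the cluster and the horizontal lines are the means of each side. On all 4 plates the mean of the *Calb2* neurons lies above that of the others, by 1.37 to 2.01 times.

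*Calb2* was checked first, as the gene that marks these clusters. All values below are CPM (a gene's count of UMIs in a neuron divided by the neuron's total and scaled to 1000000), averaged over the neurons of a side on a plate, and are listed for replicates 1 to 4. *Calb2* (chr8:110142526-110168212 in GRCm38) was at 1156, 1683, 676 and 279 CPM in the *Calb2* neurons and 18.6, 3.28, 6.33 and 1.75 CPM in the others. The plate means of the sides did not overlap, so the label held on each plate. Every *Calb2* neuron had a *Calb2* UMI, with levels from 48.4 to 3677 CPM and a median of 651. Of the others, 12 of 138 had one, the highest at 312 CPM on replicate 3. These were 6 of 17 cluster 3 neurons and 6 of 58 cluster 4 neurons, while 0 of 63 cluster 1 neurons had one, which allows a share of up to 4.76% with a *Calb2* UMI at the depth of that cluster and sets no limit on neurons that express it. At 7000 UMIs per neuron, a *Calb2* UMI remained in 15 of 16 and 2 of 136, *Calb2* neurons and others in that order. The highest of the others exceeded 3 of the 16 *Calb2* neurons, 1 of them on replicate 4 and 2 on replicate 3, although the plate means stood apart.

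**Figure D2:**
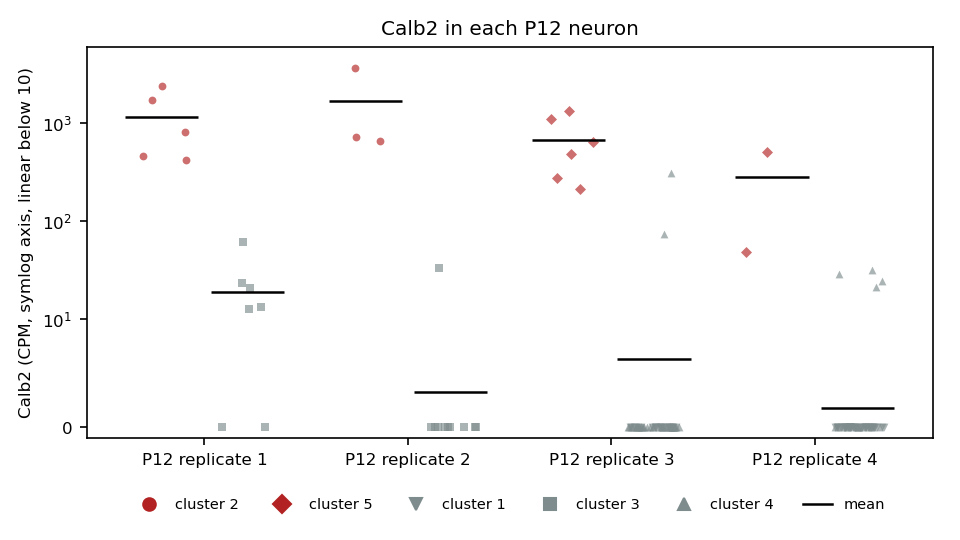
*Calb2* CPM (symlog axis, linear below 10) of every p12 neuron, by plate; marker shape gives the cluster and the horizontal lines are the means of each side. The 16 *Calb2* neurons lie between 48.4 and 3677 CPM and most of the 138 others lie at 0.

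The genes that the study names for adult group Ia, GTO and group II afferents were then read in these p12 neurons. These lists were chosen by the study from other, adult neurons of the same series. Of 6 group Ia markers, 3 passed the filter on low counts: *Calb2* itself, which marks the clusters, *Hpse* and *Slc17a6*. All 3 were called higher, beside 6.99% of all genes tested, but *Calb2* had to be, and a gene near 0 in the others enters the test only through the *Calb2* sums, so nothing is read from the count. *Hpse*, encoding heparanase, an enzyme that cleaves heparan sulfate chains, was at 47.4, 76.3, 39.4 and 76.6 CPM in the *Calb2* neurons and 8.55, 4.8, 1.15 and 0 CPM in the others. Every *Calb2* plate stood above every other plate, and *Hpse* UMIs were seen in 16 of 16 and 7 of 138 neurons of the sides in this order, or 6 of 16 and 2 of 136 at 7000 UMIs per neuron (log2 fold change 4.51, SE 0.58, adjusted p = 6.75e-09, edgeR's quasi-likelihood test with Benjamini-Hochberg adjustment, as for every adjusted p below). *Slc17a6*, encoding the vesicular glutamate transporter VGLUT2, was at 172, 119, 70.1 and 77.9 CPM in the *Calb2* neurons and 48.7, 56.3, 29.6 and 19.1 CPM in the others (log2 fold change 1.51, SE 0.25, adjusted p = 2.67e-06). It was thus not absent from the others, where 59 of 138 neurons had a UMI, but the plate means did not overlap. *Agpat4*, encoding an acyltransferase of phosphatidic acid synthesis, and *Colq*, encoding the collagen tail of acetylcholinesterase, did not pass the filter and were not tested. *Agpat4* was at 70.2, 44.2, 18.7 and 24.2 CPM in the *Calb2* neurons and 2.78, 6.06, 2.41 and 3.16 CPM in the others, with UMIs in 11 of 16 and 11 of 138 neurons. *Colq* was at 17.6, 18.1, 13.9 and 13.4 CPM in the *Calb2* neurons and 8.86, 1.54, 0.742 and 0 CPM in the others, with UMIs in 10 of 16 and 3 of 138 neurons. For both, the plate means of the sides did not overlap, but after thinning the numbers of neurons with a UMI fell to 4 of 16 and 4 of 136 for *Agpat4* and 1 of 16 and 1 of 136 for *Colq*. *Calb1*, encoding calbindin-D28k, behaved otherwise, at 25.3, 165, 13.5 and 12.1 CPM in the *Calb2* neurons and 13.1, 11, 13.2 and 17.6 CPM in the others. Replicate 2 was high through 1 neuron of 464 CPM, replicate 1 too lay above every plate of the others, and replicates 3 and 4 lay within their range.

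None of the 7 GTO markers passed the filter, so none was tested. *Pcdh8* and *Itga2* had no UMI in any *Calb2* neuron. *Pcdh8*, encoding a protocadherin, was at 15.6, 38.6, 11.8 and 13.3 CPM in the others, with UMIs in 36 of 138 neurons against 0 of 16, which allows a share of up to 18.8% of neurons with a UMI. Counted over the 4 plates, 17.8 UMIs would be expected at the level of the others. With a floor of 3 counts over the group, *Pcdh8* was 5.94-fold lower, and the counting interval allows as little as 4.83-fold. *Itga2*, encoding an integrin subunit that binds collagen, was at 2.78, 22.5, 2.06 and 1.35 CPM in the others and 0 in the *Calb2* neurons. Its UMIs were seen in 9 of 138 of the others, too few for 0 of 16 to show a fall. With 8.19 UMIs expected, the same floor gave 2.73-fold and the counting interval allows 2.22-fold, but both cover counting error only. *Chad*, encoding chondroadherin, was at 5.02, 0, 7.21 and 12.1 CPM in the *Calb2* neurons and 67.6, 43.1, 14.9 and 4.73 CPM in the others. *Pou4f3*, encoding a POU-domain transcription factor, was at 23.1, 0, 6.78 and 0 CPM in the *Calb2* neurons and 27.8, 52.2, 3.37 and 3.93 CPM in the others, and the sides overlapped. *Pcdh17*, encoding another protocadherin, was at 41.1, 0, 2.66 and 0 CPM in the *Calb2* neurons and 30, 26.5, 1.42 and 5.76 CPM in the others, with 21 UMIs in 4 *Calb2* neurons against 25.7 expected at the level of the others, and the *Calb2* neurons were higher on replicates 1 and 3 and at 0 on the other plates. *Npy1r* had 3 UMIs against 16.7 expected and *Grin3a* 1 against 6.82.

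Of 5 genes listed for group II afferents, 3 were tested: *Nxph1* and *Cdh13* fell and *Heg1*, which the study ties to adult cluster 1 as well as to clusters 2 and 3, rose (beside 7.65% lower and 6.99% higher over all genes tested). *Nxph1*, encoding neurexophilin 1, a secreted ligand of neurexins, was at 5.95, 0, 16.6 and 12.1 CPM in the *Calb2* neurons and 62.3, 71, 53.8 and 44.5 CPM in the others (log2 fold change -2.71, SE 0.43, adjusted p = 1.90e-06). Without replicate 3 its log2 fold change was -3.50. *Cdh13*, encoding T-cadherin (log2 fold change -1.63, SE 0.35, adjusted p = 3.98e-04), was at 35.6, 15, 16.8 and 0 CPM in the *Calb2* neurons and 91.4, 27.2, 55.3 and 35.3 CPM in the others, where the sides overlapped, but it did not pass with DESeq2 (adjusted p = 0.0636), with limma (adjusted p = 0.074), without the plate as a block (0.221) or on either pair of plates alone (0.0941 and 0.0558). *Heg1*, encoding a transmembrane protein with EGF-like domains, was at 66.6, 125, 99.2 and 49.7 CPM in the *Calb2* neurons and 20.5, 26.5, 27.8 and 33.2 CPM in the others (log2 fold change 1.60, SE 0.26, adjusted p = 3.45e-06). *Tac1*, the gene for substance P, was not tested. It was at 2.38, 8.37, 0 and 0 CPM in the *Calb2* neurons and 66.2, 43.2, 177 and 198 CPM in the others, with UMIs in 2 of 16 and 83 of 138 neurons. All 3 UMIs of the *Calb2* neurons came from replicates 1 and 2, and the ratio to the 83.5 UMIs expected was 27.8-fold fewer, with a counting interval of 9.53 to 135. *Fam196a* had 2 UMIs in the *Calb2* neurons and UMIs in 31 of the others.

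Across all genes, 729 of 4979 tested passed an adjusted p of 0.05 (14.6% of genes tested): 348 rose (6.99%) and 381 fell (7.65%). The same direction on all 4 plates and a call were found together for 631 genes (12.7%), and 509 genes (10.2%) had plate means that did not overlap. The authors built the clusters from these genes in these neurons, so these counts say how far the plates repeat a difference and are no evidence that the clusters are distinct. With no filter on low counts, 256 rose and 542 fell, so the balance of directions depends on the filter. Without replicate 1 the count was 464 and without replicate 3 it was 437. After thinning only 822 genes could be tested, and 98 were called. Of the 12 largest rises described below only 2 could be tested there and of the 12 largest falls 0. Of the 212 genes called at full depth that could be tested there, 209 had the same sign and 92 were called.

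Predicted genes and clones without a gene name (such as those whose symbol ends in Rik) are not named. The 12 other genes with the largest rise that went the same way on all 4 plates were *Calb2*, *Hpse* and 10 others, with log2 fold changes down to 2.42. These rises and the falls below were picked by size from this contrast, between clusters built on such genes. Those near 0 on either side entered the test only through the sums of the opposite side. Their adjusted p says how far the plates repeat a difference and is no further evidence for it. Signalling genes were among the rises. *Rgs6*, encoding a regulator that speeds the turning off of inhibitory G proteins, was at 83.7, 70.3, 56.8 and 53.7 CPM in the *Calb2* neurons and 0, 9.4, 0 and 2.87 CPM in the others (log2 fold change 4.12, SE 0.49, adjusted p = 6.91e-10). *Ptpre*, encoding a receptor-type tyrosine phosphatase, was at 104, 46.7, 55.7 and 67.2 CPM in the *Calb2* neurons and 6.52, 7.1, 5.12 and 2.59 CPM in the others. *Lcp2*, encoding the adaptor SLP-76, best known from T cells, was at 73.2, 118, 49.9 and 88.7 CPM in the *Calb2* neurons and 8.66, 6.64, 5.6 and 4.09 CPM in the others. The 3 genes were low in the others, none above 9.4 CPM on any plate, and UMIs were found in 14 or 15 of the 16 *Calb2* neurons. *Cpne4*, encoding a copine, a protein that binds membrane lipids with calcium, was at 65.5, 80.5, 56.8 and 52.4 CPM in the *Calb2* neurons and 3.74, 4.7, 1.15 and 0 CPM in the others, with UMIs in 16 of 16 and 6 of 138 neurons, or 5 of 16 and 1 of 136 after thinning (log2 fold change 4.46, SE 0.51, adjusted p = 1.87e-10). *Kcnip1*, encoding a calcium-sensing auxiliary subunit of Kv4 potassium channels, was at 227, 88.1, 304 and 80.6 CPM in the *Calb2* neurons and 30.6, 34.7, 13.7 and 13.1 CPM in the others (log2 fold change 2.87, SE 0.28, adjusted p = 1.23e-12). Its level was highest on replicates 1 and 3, and without replicate 3 the log2 fold change was 1.86. Leaving out 1 plate moved *Hpse* between 3.86 (without replicate 4) and 5.25 (without replicate 1), and *Rgs6* between 3.40 (without replicate 3) and 4.93 (without replicate 2), with both still called.

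*Spp1*, *Ibsp* and *Hapln1* encode secreted or matrix proteins. *Spp1*, encoding osteopontin, was present in nearly all pSNs and stood at 1323, 1635, 2807 and 3308 CPM in the *Calb2* neurons and 174, 392, 353 and 421 CPM in the others (log2 fold change 2.60, SE 0.11, adjusted p = 4.30e-30). The rise was thus one of degree, with UMIs in 16 of 16 and 124 of 138 neurons. *Ibsp*, encoding bone sialoprotein and lying near *Spp1* on the same chromosome (chr5:104299287-104311472 and chr5:104435111-104441053), was at 43.2, 58.2, 29.6 and 52.4 CPM in the *Calb2* neurons and 9.1, 0, 3.66 and 1.37 CPM in the others (log2 fold change 3.02, SE 0.54, adjusted p = 1.99e-05). *Hapln1*, encoding a link protein that ties hyaluronan to proteoglycans, was at 164, 105, 69.3 and 61.8 CPM in the *Calb2* neurons and 12, 17.8, 7.23 and 7.33 CPM in the others (log2 fold change 2.67, SE 0.29, adjusted p = 3.94e-11). In none of them did the plate means of the sides overlap, but *Ibsp* was not called on replicates 1 and 2 alone (adjusted p = 0.0526). *Cryba2*, encoding a beta-crystallin, was at 223, 165, 151 and 99.5 CPM in the *Calb2* neurons and 34.7, 5.96, 8.22 and 4.73 CPM in the others (log2 fold change 3.50, SE 0.27, adjusted p = 1.50e-16). *Lmcd1*, encoding a LIM-domain protein, was at 91.8, 38, 121 and 64.5 CPM in the *Calb2* neurons and 7.4, 17.9, 11.3 and 10.5 CPM in the others, and it too was not called on replicates 1 and 2 alone (adjusted p = 0.0602).

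**Figure D3:**
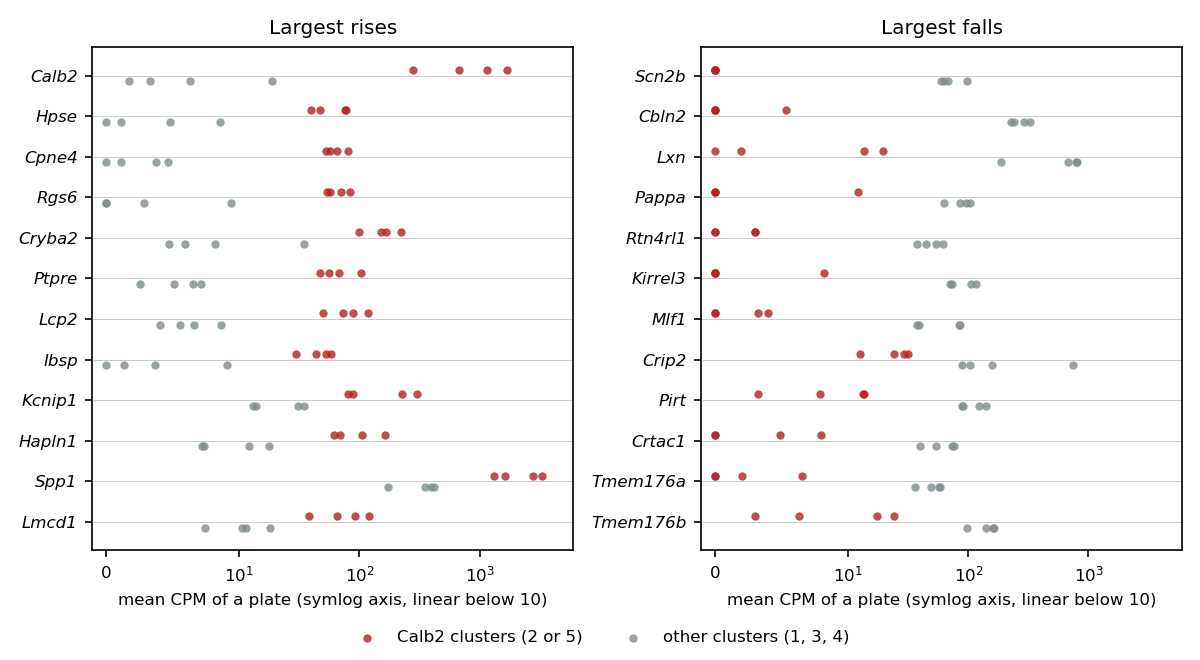
Mean CPM of each p12 plate (symlog axis, linear below 10) for the 12 largest rises and the 12 largest falls; each point is 1 plate, coloured by side. In all 24 genes the points of the *Calb2* neurons and of the others do not overlap. The genes were picked from this same contrast, so this was largely fixed in advance. Over all 4979 genes tested, 509 (10.2%) did not overlap.

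By the same rule, the 12 largest falls were genes at a low level or absent in the *Calb2* neurons. *Scn2b*, encoding the beta2 subunit of voltage-gated sodium channels, had no UMI in any *Calb2* neuron and was at 59.7, 98.1, 63.3 and 67.6 CPM in the others, in 94 of 138 neurons. After thinning it was left in 0 of 16 and 48 of 136. With 56.7 UMIs expected at the level of the others and the floor of 3 counts, it was 18.9-fold lower (adjusted p = 1.04e-10). The counting interval allows as little as 15.4-fold. *Cbln2*, encoding cerebellin 2, a secreted organiser of synapses that binds neurexins, was at 324, 241, 291 and 226 CPM in the others, with UMIs in 134 of them. The *Calb2* neurons had 2 UMIs against 254 expected at the level of the others, 127-fold fewer with a 95% counting interval of 35.2 to 1050.1 (adjusted p = 2.49e-22). The fitted log2 fold change, -6.86, was -6.27 without replicate 3 and -10.24 without replicate 1, where both UMIs lay. *Lxn*, encoding latexin, an inhibitor of carboxypeptidases, was at 1.94, 0, 19.5 and 13.4 CPM in the *Calb2* neurons and 682, 186, 797 and 791 CPM in the others (log2 fold change -6.14, SE 0.27, adjusted p = 2.85e-28). Without replicate 1 the log2 fold change of *Lxn* was -5.35 and without replicate 3 it was -7.40. UMIs of *Cbln2* were read in 2 of 16 and 134 of 138 and of *Lxn* in 5 of 16 and 126 of 138 neurons, and after thinning *Cbln2* was left in 0 of 16 and 102 of 136 and *Lxn* in 1 of 16 and 106 of 136.

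*Pappa*, encoding a metalloprotease that cleaves IGF-binding proteins, was at 63, 95.4, 103 and 85.8 CPM in the others and had 1 UMI against 77.7 expected at the level of the others, 77.7-fold fewer with a 95% counting interval of 14 to 3071. Its fitted log2 fold change, -5.99, was -5.27 without replicate 3 and -8.42 without replicate 4, where that UMI lay. *Kirrel3*, encoding an adhesion molecule of the immunoglobulin superfamily, was at 8.2, 0, 0 and 0 CPM in the *Calb2* neurons and 115, 105, 70.8 and 73.6 CPM in the others, and its 4 UMIs came from replicate 1 alone. *Rtn4rl1*, encoding a receptor related to the Nogo receptor, had 2 UMIs against 51.6 expected at the level of the others, 25.8-fold fewer with a 95% counting interval of 7.15 to 213. *Crip2*, encoding a LIM-domain protein, was at 31.7, 28.9, 12.4 and 24.2 CPM in the *Calb2* neurons and 743, 103, 158 and 88.8 CPM in the others. The high value among the others was that of replicate 1, and without that plate the log2 fold change went from -4.01 to -2.86. *Pirt*, encoding a membrane protein that binds phosphoinositides, was at 7.89, 13.2, 3.28 and 13.4 CPM in the *Calb2* neurons and 123, 139, 88.1 and 90 CPM in the others (log2 fold change -3.98, SE 0.38, adjusted p = 3.71e-13). *Crtac1*, encoding an extracellular matrix protein of cartilage, was at 7.93, 4.87, 0 and 0 CPM in the *Calb2* neurons and 75.9, 72.9, 40 and 53.3 CPM in the others. *Mlf1* had 3 UMIs against 52.6 expected at the level of the others, 17.5-fold fewer with a 95% counting interval of 6.0 to 85. *Tmem176a* and *Tmem176b* overlap in the annotation (chr6:48841483-48845364 and chr6:48833811-48845948), so their counts may not be independent. *Tmem176b* was at 6.35, 17.4, 3.05 and 24.2 CPM in the *Calb2* neurons and 162, 96.8, 163 and 139.7 CPM in the others, and *Tmem176a* had 3 UMIs in the *Calb2* neurons. On no plate did the *Calb2* neurons reach the level of the others in any of these 9 genes.

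To show the start regions of genes that moved together, the promoters of a pair of rises and a pair of falls are printed 5′ to 3′, from 250 bases before to 50 bases after the RefSeq start in GRCm38.p6. Capitals mark matches, on either strand, to the letters TGTGGT (the core recognised by Runt-domain factors such as Runx3; ACCACA on the other strand), CCGGAA (a core of ETS factors such as Etv1; TTCCGG) and TGCTGAC (a half-site of MAF factors; GTCAGCA), none of which overlaps another here.
Hpse (chr5:100719667-100719966, minus strand): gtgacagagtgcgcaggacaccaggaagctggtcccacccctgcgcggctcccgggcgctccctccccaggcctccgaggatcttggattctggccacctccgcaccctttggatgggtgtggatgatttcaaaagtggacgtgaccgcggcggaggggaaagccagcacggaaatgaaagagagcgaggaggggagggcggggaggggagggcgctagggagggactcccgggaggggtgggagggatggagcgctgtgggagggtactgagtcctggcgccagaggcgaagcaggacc
Cpne4 (chr9:104569405-104569704, plus strand): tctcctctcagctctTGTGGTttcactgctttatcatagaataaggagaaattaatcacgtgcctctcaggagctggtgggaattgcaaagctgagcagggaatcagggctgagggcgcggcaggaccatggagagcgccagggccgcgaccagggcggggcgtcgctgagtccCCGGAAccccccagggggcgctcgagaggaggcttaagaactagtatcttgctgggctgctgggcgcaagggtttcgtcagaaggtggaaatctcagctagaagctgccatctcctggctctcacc
Scn2b (chr9:45117626-45117925, plus strand): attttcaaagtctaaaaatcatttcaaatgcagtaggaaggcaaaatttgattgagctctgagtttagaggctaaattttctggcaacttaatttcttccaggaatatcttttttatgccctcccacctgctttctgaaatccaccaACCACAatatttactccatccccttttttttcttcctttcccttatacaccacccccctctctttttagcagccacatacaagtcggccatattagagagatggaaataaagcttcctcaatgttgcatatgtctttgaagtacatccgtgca
Lxn (chr3:67463858-67464157, minus strand): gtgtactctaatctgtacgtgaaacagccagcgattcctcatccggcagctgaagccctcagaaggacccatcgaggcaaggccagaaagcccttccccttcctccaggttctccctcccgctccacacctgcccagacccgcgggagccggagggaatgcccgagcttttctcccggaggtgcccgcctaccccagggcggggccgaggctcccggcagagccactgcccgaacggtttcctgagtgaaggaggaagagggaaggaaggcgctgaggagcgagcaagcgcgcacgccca
The *Cpne4* window, the first of 2 listed for that gene, held 1 TGTGGT and 1 CCGGAA match, the *Scn2b* window 1 TGTGGT match, and those of *Hpse* and *Lxn* none. The Runt core lay in 16.8% of all 32851 promoters of the table, the ETS core in 14.9% and the MAF half-site in 4.67%. Of the 36 genes that met the naming rule and rose, 23 had a promoter in the table, and 5, 7 and 2 of them held the 3 motifs in that order. Of the 26 that met it and fell, 18 had one, and 2, 2 and 1 did. Counted by gene, the shares over the 27025 genes of the table were 18.9, 16.7 and 5.28%. A match is a run of letters, not a site shown to be bound.

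Ion channels set how sensory neurons fire. Of 45 genes for voltage-gated potassium and HCN channels and their partners, 22 were tested, 9 rose and 5 fell (over all genes tested 6.99% rose and 7.65% fell), with a median log2 fold change of 0.31 against -0.0070 over all genes tested. A member near 0 on one side enters the test only through the other, so the counts and medians of this and the following lists are descriptions alone. *Kcna1*, encoding the low-threshold channel subunit Kv1.1, was at 319.8, 299, 239 and 360.1 CPM in the *Calb2* neurons and 120.3, 171, 83.8 and 80.5 CPM in the others (log2 fold change 1.38, SE 0.16, adjusted p = 2.37e-10). *Kcnc1*, encoding a subunit of the fast-deactivating Kv3 channels, rose as well and was at 165, 331, 244 and 195 CPM in the *Calb2* neurons and 88.1, 97.1, 88.8 and 73.7 CPM in the others, without overlap (log2 fold change 1.26, SE 0.16, adjusted p = 1.18e-08). The 5 that fell, *Kcna6*, *Kcnc4*, *Kcnip2*, *Kcnip3* and *Kcnip4*, are named after their values were seen. The Kv4 partners did not move one way: *Kcnip1* rose while *Kcnip2* was at 63.1, 65.4, 40.9 and 99.5 CPM in the *Calb2* neurons and 147, 129, 164 and 169.9 CPM in the others (log2 fold change -1.28), and *Kcnip4* at 12, 9.05, 0 and 0 against 36.3, 58.1, 59.1 and 41.1 CPM (log2 fold change -2.74).

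Among 33 genes for sodium and calcium channels and their partners, 13 were tested, 4 rose and 4 fell, beside 6.99% and 7.65% of all genes tested (median log2 fold change 0.035, the same with *Scn2b* at its bound). All 4 that fell concern sodium channels. Besides *Scn2b* these were *Scn9a*, encoding Nav1.7, at 20.4, 39.7, 19.3 and 25.5 CPM in the *Calb2* neurons and 151, 139, 189 and 156 CPM in the others (log2 fold change -2.62, SE 0.26, adjusted p = 3.08e-12), and *Scn7a*, encoding the sodium-sensing channel Nax, at 43.2, 11.5, 16.2 and 0 CPM in the *Calb2* neurons and 119, 123, 62.7 and 64.7 CPM in the others (log2 fold change -2.09, SE 0.30, adjusted p = 2.14e-07). Without replicate 1 the log2 fold change of *Scn7a* was -2.78. *Fgf13*, encoding a fibroblast growth factor homologous factor that binds sodium channels, was at 82.9, 56.7, 87 and 12.1 CPM in the *Calb2* neurons and 296, 284, 208 and 196 CPM in the others (log2 fold change -1.76, SE 0.20, adjusted p = 1.08e-10). *Scn9a* was still read in 13 of 16 *Calb2* neurons, so the fall was one of level. The 4 that rose were *Scn8a* (Nav1.6, log2 fold change 0.75), *Fgf12*, *Cacna1a* and *Cacna2d3*, named after their values were seen. Sodium channel genes thus moved both ways.

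Of 18 genes for neurofilaments and the axon, 6 rose and 5 fell, beside 6.99% and 7.65% of all genes tested (median log2 fold change 0.0075). Intermediate filament genes moved both ways: the 3 neurofilament chains, which set axon calibre, rose, while *Ina*, encoding alpha-internexin (log2 fold change -0.59, adjusted p = 0.00182), and *Prph*, encoding peripherin (-0.42, adjusted p = 9.79e-04), both named after their values were seen, fell. *Nefh*, the heavy chain, was at 6181, 5669, 6107 and 4035 CPM in the *Calb2* neurons and 2349, 3100.0, 1967 and 1763 CPM in the others (log2 fold change 1.16, SE 0.079, adjusted p = 9.35e-19). *Nefl* (log2 fold change 0.80) and *Nefm* (0.68) were higher within each plate, but the *Calb2* value of replicate 4 lay below the others' value of replicate 2, and both calls were lost without the plate as a block (adjusted p = 0.224 and 0.155). *Sncg*, encoding gamma-synuclein, fell and was at 2719, 3094, 3005 and 3243 CPM in the *Calb2* neurons and 4361, 4198, 4876 and 5431 CPM in the others (log2 fold change -0.56, SE 0.074, adjusted p = 1.24e-08, or 0.132 without the block). Of 30 matrix and glycan genes, 12 were tested, 6 rose and 0 fell, beside the same 6.99% and 7.65% (median 0.61). The members low in the others, *Hpse* and *Hapln1* among them, could enter the test through the *Calb2* sums alone and thus be counted only as rises. The 6 were *Hpse*, *Hapln1*, *Hapln4*, *Bcan*, *Chst2* and *Ndst4*. *Hapln4*, another link protein, was at 337, 225, 205 and 215 CPM in the *Calb2* neurons and 153, 143, 78.5 and 72 CPM in the others (log2 fold change 1.03, SE 0.16, adjusted p = 1.42e-06), though it was not called on replicates 1 and 2 alone (adjusted p = 0.0522). *Ndst4*, encoding an enzyme that modifies heparan sulfate, was at 291, 359, 481 and 544 CPM in the *Calb2* neurons and 141, 253, 234 and 194 CPM in the others (log2 fold change 0.98, SE 0.14, adjusted p = 7.44e-08, or 0.0696 without the block). Of 16 axon growth genes, 10 were tested and only *Marcksl1* and *Tuba1a* were called, both lower. *Marcksl1* was at 19.7, 32.7, 7.21 and 36.3 CPM in the *Calb2* neurons and 80.5, 39.3, 58.6 and 76.1 CPM in the others (log2 fold change -1.59), but it was not called without replicate 1 (adjusted p = 0.105), with DESeq2 (0.0932) or without the block (0.111), and *Tuba1a* was not called after thinning (0.081) or without the block (0.465).

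Of 35 genes for vesicle release, 23 were tested, 6 rose and 4 fell, beside 6.99% and 7.65% of all genes tested (median 0.15). The synapsin genes *Syn1* (log2 fold change -0.55) and *Syn2* (-0.71), named after their values were seen, both fell. *Syt1*, encoding the fast calcium sensor synaptotagmin 1, was at 36.9, 55, 57 and 73.9 CPM in the *Calb2* neurons and 183, 133, 279 and 223 CPM in the others (log2 fold change -1.86, SE 0.21, adjusted p = 2.30e-10). *Vamp2*, encoding synaptobrevin 2, was at 39.5, 71.3, 38.4 and 39 CPM in the *Calb2* neurons and 170.2, 148, 115 and 109 CPM in the others (log2 fold change -1.48, SE 0.24, adjusted p = 1.67e-06), while *Vamp1*, encoding synaptobrevin 1, was at 1021, 958, 836 and 606 CPM in the *Calb2* neurons and 569.7, 661, 487 and 494 CPM in the others (log2 fold change 0.60, SE 0.10, adjusted p = 8.29e-06). The sides did not overlap for *Syt1* and *Vamp2* and overlapped for *Vamp1*, whose call was lost after thinning (adjusted p = 0.0961) and without the block (0.109). Among glutamate receptors 1 of 4 tested rose, *Gria2*, at 201, 166, 109 and 139.8 CPM in the *Calb2* neurons and 86.4, 79.3, 61.3 and 53.8 CPM in the others (log2 fold change 1.05, SE 0.20, adjusted p = 4.08e-05), though not on replicates 3 and 4 alone (adjusted p = 0.0529). Of 27 cadherins and protocadherins, 6 were tested: *Cdh13* fell and *Pcdh9* rose, at 245, 244, 143 and 192 CPM in the *Calb2* neurons and 83.9, 101, 33.8 and 28.8 CPM in the others (log2 fold change 1.68, SE 0.19, adjusted p = 2.30e-10). Of 26 calcium-binding proteins, 17 were tested, and *Calb2*, which marks the clusters, had to rise. With it, 4 rose and 2 fell, beside 6.99% and 7.65% of all genes tested (median log2 fold change 0.12). Besides *Calb2* they include *S100a10*, at 946, 1004, 1102 and 1426 CPM in the *Calb2* neurons and 1636, 1672, 2148 and 2163 CPM in the others (log2 fold change -0.74, SE 0.085, adjusted p = 2.30e-10, or 0.0823 without the block), *Caln1* (calneuron 1), at 29.6, 10.8, 8.62 and 0 CPM in the *Calb2* neurons and 60.4, 68.3, 66.7 and 53.1 CPM in the others (log2 fold change -1.84, SE 0.36, adjusted p = 7.42e-05), whose log2 fold change was -2.80 without replicate 1 and which was not called on replicates 1 and 2 alone (adjusted p = 0.157), and *Cabp1* (log2 fold change 0.52), which was not called without replicate 1 (adjusted p = 0.0647).

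Genes of general pSN identity were read on both sides. All 9 were tested: 2 rose, 1 fell (beside 6.99% and 7.65% of all genes tested), and the median log2 fold change was 0.26. *Ntrk3*, encoding TrkC, the receptor for neurotrophin-3, was at 958, 849, 928 and 625 CPM in the *Calb2* neurons and 467, 398, 296 and 257 CPM in the others (log2 fold change 1.22, SE 0.11, adjusted p = 8.10e-14). The plates of the sides did not overlap. *Ngfr*, encoding the low-affinity neurotrophin receptor p75, rose too, at 208, 128, 90.7 and 125 CPM in the *Calb2* neurons and 84.2, 77.8, 27.1 and 32.8 CPM in the others (log2 fold change 1.14, SE 0.21, adjusted p = 4.30e-05, or 0.129 without the block), and these were 2 of 3 neurotrophin and GDNF receptors tested, a list that shares *Ntrk3* with the one above. *Isl1*, encoding a LIM-homeodomain factor of sensory neurons, fell, at 141, 155, 158 and 151 CPM in the *Calb2* neurons and 247, 266, 326 and 250.3 CPM in the others (log2 fold change -0.85, SE 0.15, adjusted p = 2.02e-05). *Pvalb*, encoding parvalbumin, was present in all 154 neurons, at 3288, 3438, 3578 and 4416 CPM in the *Calb2* neurons and 2486, 3058, 3405 and 3326 CPM in the others (log2 fold change 0.27, SE 0.075, adjusted p = 0.00747). Its small rise was not called without replicate 1 (adjusted p = 0.184), without replicate 4 (0.194) or after thinning (0.324). *Runx3* (adjusted p = 0.728), *Etv1* (0.13), *Whrn* (0.576), *Pou4f1* (0.952), *Slc17a7* (0.297) and *Piezo2* (0.458) did not pass the test. *Runx3* was read in 12 of 16 and 50 of 138 neurons and *Etv1* in 16 of 16 and 136 of 138, so the markers that define pSNs were present in the *Calb2* neurons. Of 25 Hox genes, 2 passed the filter and neither was called.

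Markers of other cells were read next. Of 6 genes of other mechanoreceptors, *Maf* alone was tested. It encodes a transcription factor of rapidly adapting touch neurons and was at 272, 266, 144 and 219 CPM in the *Calb2* neurons and 81.6, 41.5, 15.9 and 13 CPM in the others (log2 fold change 2.27, SE 0.22, adjusted p = 4.46e-13), with UMIs in 16 of 16 and 36 of 138 neurons. *Ret*, encoding a GDNF receptor, had 56 UMIs in 14 of 16 *Calb2* neurons and 24 in 17 of the others, and *Ntrk2*, encoding TrkB, had 12 in 8 and 14 in 12. *Mafa*, *Cacna1h* and *Th* were at 0 in all p12 neurons. The summed level of the list was 209 to 368 CPM over the *Calb2* plates and 20.9 to 103 CPM over the others, carried mostly by *Maf*. *Ret* too was higher in the *Calb2* neurons on every plate. *Ntrk2* moved both ways, at 11.1, 13.9, 12.5 and 0 CPM in the *Calb2* neurons and 15.2, 2.44, 1.32 and 2.82 CPM in the others. The part of *Maf* and *Ret* in the comparison was not tested. The 7 nociceptor markers summed to at most 11.5 CPM on any *Calb2* plate, with *Mrgprd* and *P2rx3* at 0, and the 4 immune markers had no UMI there. Red blood cell and fibroblast or vessel genes summed to at most 3.05 and 10.8 CPM on the *Calb2* plates and 13.1 and 28.2 CPM on those of the others.

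Satellite and Schwann cell genes varied from plate to plate. The 10 summed to 693, 221, 417 and 13.4 CPM in the *Calb2* neurons and 588, 589, 202 and 310.3 CPM in the others. The *Calb2* neurons were higher on 2 of 4 plates (exact two-sided permutation p = 0.625). By the median over neurons in place of the mean, the glial share was lower in the *Calb2* neurons on 4 of 4 plates (0.0125 against 0.0173% of UMIs on average), with a p of 1 in 8, the smallest that 4 plates allow. *Apoe*, encoding a lipid carrier of satellite cells, was read in 13 of 16 and 57 of 138 neurons, *Prx* and *Mag* of myelinating cells were at 0, and the 2 genes tested, *Apoe* and *Fabp7*, were not called. Without neurons above 500 CPM of *Apoe*, 11 of the 12 largest rises and 8 of the 12 largest falls could be tested, and all of these were called. Of 12 immediate early and heat shock genes, 4 were tested (median log2 fold change -0.36) and *Hsp90aa1* alone was called, beside 6.99% of all genes tested that rose (log2 fold change 0.31), but not with replicate 1 removed (adjusted p = 0.247) or with replicate 3 removed (0.063). Sex-linked genes were read on both sides, with *Xist* UMIs in 2 of 16 and 16 of 138 neurons and *Eif2s3y* UMIs in 4 and 53, and none was tested.

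Clusters 2 and 5 never met on a plate, so each pair of plates gives its own contrast. Cluster 2 against cluster 3 called 344 genes (6.91%), 156 higher (3.13%) and 188 lower (3.78%), and cluster 5 against clusters 1 and 4 called 377 (7.57%), 170 higher (3.41%) and 207 lower (4.16%). Each count leaned on single plates: the first was 67 without replicate 1, and the second was 28 without replicate 3 and 230 without replicate 4. Fitted apart, on neurons and plates that are not shared, the pairs called 219 and 449 of 5383 genes tested in both. Called in both, in the same direction, were 158, which is 72.1% of the first list and 35.2% of the second, and 1 was called in opposite directions. Both clusters came from the authors' clustering of the p12 neurons on these genes, and both were chosen here as *Calb2* clusters. Shared calls were thus partly built in, and the share to be had from this alone was not tested. The counts say only how far the pairs repeat a difference.

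The difference between the contrasts itself was called for 8 genes (0.161% of genes tested), 3 with a positive difference (0.0603%) and 5 with a negative one (0.1%), and 228 genes had an unadjusted p under 0.05 (4.58%). DESeq2 called 0, and without replicate 3 edgeR called 0 and without replicate 1 it called 3. *Rph3a*, encoding rabphilin, a partner of Rab3 on secretory vesicles, rose on both pairs, at 279.6, 252, 141 and 156 CPM in the *Calb2* neurons and 57.6, 113, 5.33 and 12.5 CPM in the others, and by more on the second (log2 difference -2.35, first pair minus second, adjusted p = 0.00585). *Ctnnbl1*, encoding a protein associated with the spliceosome, did so as well, at 237, 188, 459 and 286 CPM in the *Calb2* neurons and 62.6, 73.5, 39.6 and 41.3 CPM in the others (-1.49, adjusted p = 0.0468). In both genes the others were also lower on the second pair. The difference of *Rph3a* was not called without replicate 1, 2 or 3, in turn (adjusted p = 0.0576, 0.268 and 0.932), and that of *Ctnnbl1* was lost whichever plate was left out (0.106 to 0.932). *Pcsk2*, encoding the prohormone convertase PC2, was lower in the *Calb2* neurons of replicates 1 to 3 and not of replicate 4, at 446, 424, 679 and 908 CPM in the *Calb2* neurons and 888, 1054, 938 and 837 CPM in the others. *Mt1*, encoding a metallothionein, was at 412, 501, 458 and 409 CPM in the *Calb2* neurons and 213, 147, 448 and 402 CPM in the others, so that the sides stood apart on the first pair and met on the second. *Tmod3*, encoding a capping protein of actin filaments, was at 19.9, 273, 36.6 and 64.5 CPM in the *Calb2* neurons and 18, 16.2, 40.4 and 45.5 CPM in the others. Its difference rested on replicate 2, and without that plate its overall log2 fold change was -0.0026. *Vstm2b* (1.17 and -1.68), *Pcp4l1* (-0.56 and 2.53) and *Thrsp* (-1.16 and 1.24) had log2 fold changes of opposite sign on the first and the second pair.

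**Figure D4:**
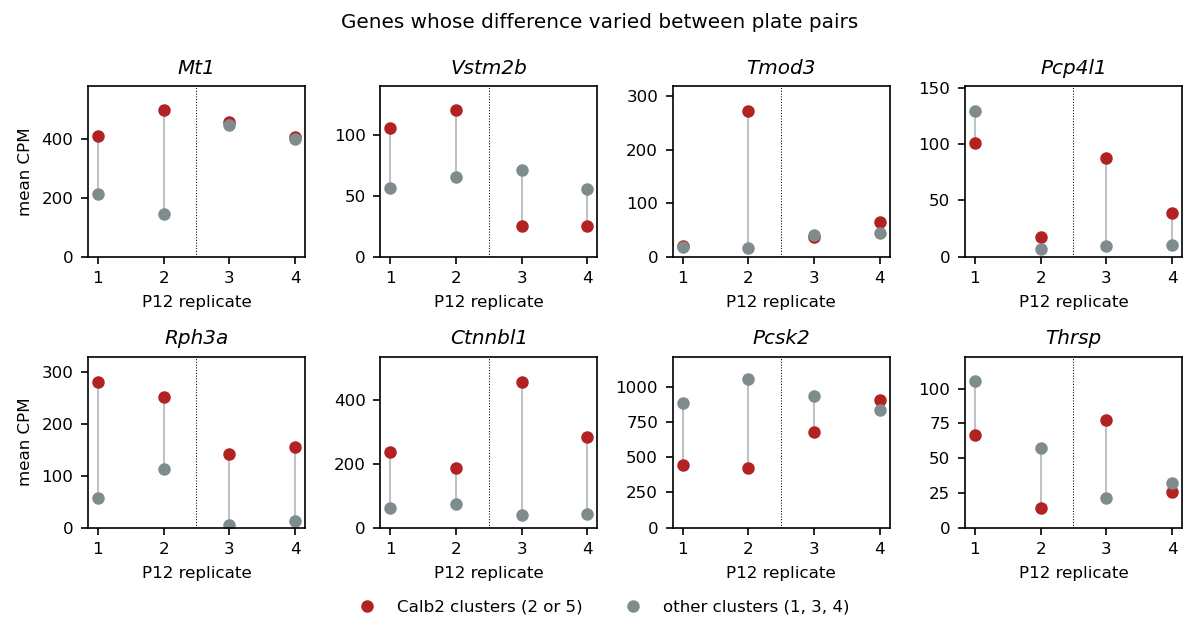
Mean CPM of each p12 plate for the 8 genes whose difference between sides varied between the pairs of plates (replicates 1 and 2, left of the dotted line; 3 and 4, right); points are coloured by side. *Rph3a* and *Ctnnbl1* lie higher in the *Calb2* neurons on all 4 plates, whereas *Vstm2b* does so on replicates 1 and 2 alone.

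Adult neurons, which the p12 rule did not use, gave the same kind of contrast: adult cluster 1 (51 neurons), which the study takes for group Ia MS afferents, against adult clusters 2 to 5 (115 neurons) on 5 plates. The adult clusters too were found by the authors on the genes tested. *Calb2* was at 141 to 437 CPM over the adult cluster 1 plates and 2.4 to 4.18 CPM over the others (log2 fold change 5.97, adjusted p = 1.13e-14). At earlier stages it was near 0, at 1.85 and 1.38 CPM over the p0 plates and 1.23 and 0 CPM over the e14.5 plates, whose TrkC:tdTomato reporter marks another population than that of the later stages. Cluster 1 neurons were again the deeper side, by 1.31 to 1.84 times on the 5 plates. In the adult, 996 of 7472 genes were called (13.3%), 463 higher (6.2%) and 533 lower (7.13%). Of 4906 genes tested at both stages, 707 were called at p12 and 804 in the adult, and 433 were called at both in the same direction (61.2% of the p12 list and 53.9% of the adult list). The sign was the same for 679 of the 707 genes called at p12 (96.0%), beside 70% of all genes tested at both stages. With adult replicates 3 to 5 alone, an alternative added after seeing the data, 651 of 705 had the same sign (92.3%) and 239 were called at both stages.

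All 12 of the largest p12 rises were tested and called higher in the adult, and 7 of the 12 largest falls were tested there, all called lower. *Hpse* was at 12.6 to 28.9 against 0 to 2.5 CPM (log2 fold change 3.40, adjusted p = 6.97e-06). *Cbln2* was at 0.649 to 13.3 against 80.4 to 459 CPM (log2 fold change -4.13, adjusted p = 3.41e-10), and *Maf* at 189 to 448 against 34.6 to 111 CPM (log2 fold change 2.04, adjusted p = 3.69e-11). For each of the 3 genes the adult plates of the sides did not overlap. Several study markers that could not be tested at p12 passed the filter in the adult. *Agpat4* (log2 fold change 4.31, adjusted p = 6.11e-09) and *Calb1* (log2 fold change 2.89, adjusted p = 6.21e-10) were higher in cluster 1 and *Pcdh8* (log2 fold change -2.76, adjusted p = 1.83e-06) and *Pou4f3* (log2 fold change -3.37, adjusted p = 6.43e-06) lower. *Heg1* and *Isl1*, called at p12, did not pass the test in the adult (log2 fold change 0.42, adjusted p = 0.118, and log2 fold change -0.15, adjusted p = 0.274). A difference between the stages was not tested for any of these genes.

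Only 3 genes were called in opposite directions at the 2 stages, and they are named after their values were seen. *Elmo1*, encoding a partner of the Dock activators of Rac, was at 81.8, 116, 90.4 and 114 CPM in the p12 *Calb2* neurons and 56.1, 59, 42.3 and 52.7 CPM in the others (log2 fold change 0.69, adjusted p = 0.0227), but it was lower in adult cluster 1 (-0.96, adjusted p = 4.53e-04). *Prss12*, encoding the secreted protease neurotrypsin, was lower at p12 (-0.99) and higher in the adult (0.48). *D10Wsu102e* was higher at p12 (0.92) and lower in the adult (-0.73).

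**Figure D5:**
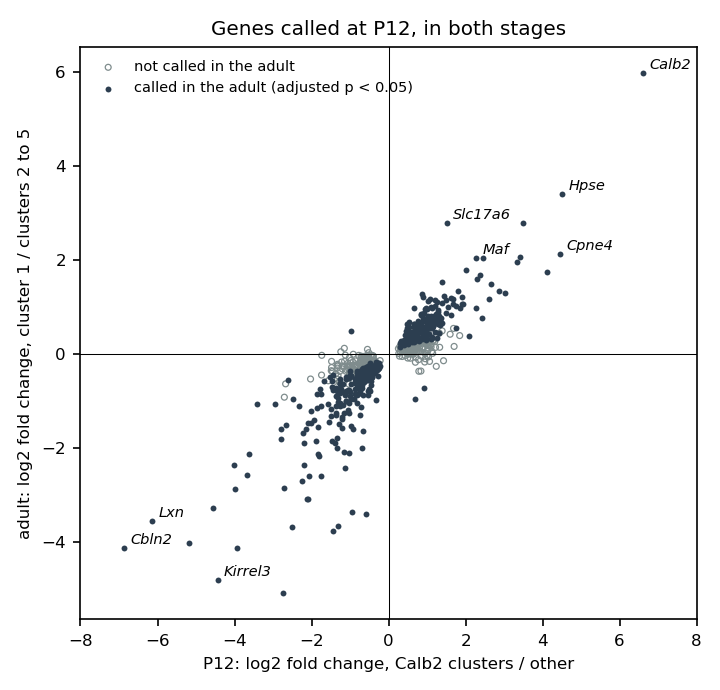
Log2 fold change at p12 (*Calb2* clusters over the others, x axis) against that in the adult (cluster 1 over clusters 2 to 5, y axis) for the 707 genes called at p12 and tested at both stages; filled points were also called in the adult. Of them 679 have the same sign at both stages.

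Wells that the authors left out have no cluster in their table, although some may have been clustered before they were dropped, since cells of the smallest clusters were removed last. Their mean level of *Apoe* was 4536 to 6778 CPM over the plates. Among left-out wells with at least 2000 genes, *Calb2* UMIs were found in 39 of 76 wells of replicate 1 and 33 of 77 of replicate 2, but in only 3 of 29 of replicate 3 and 1 of 34 of replicate 4. On replicates 1 and 2, 12 and 10 of these wells exceeded 100 CPM of *Calb2*. Their median depth was 57022 and 49129 UMIs on the first pair and 22792 and 18280 on the second. Pearson's r with *Calb2* across these wells on log10(CPM + 1), given as a description over wells that share a library, was positive for all 11 other large rises on both plates, from 0.50 to 0.74 on replicate 1 and 0.40 to 0.70 on replicate 2. Over all genes tested, r was positive for 67.8% on replicate 1 and 71.5% on replicate 2, with a median of 0.073 and 0.081. Among the genes called higher it was positive for 337 and 342 of 347, and among those called lower for 49 and 49 of 381. *Hpse* had 0.74 and 0.70 and *Maf* 0.49 and 0.41. For the 12 falls, r was negative for 10 on replicate 1 and 12 on replicate 2. *Cbln2* had -0.71 and -0.65 and *Scn2b* -0.51 and -0.51, whereas *Tmem176a* and *Tmem176b* (0.028 and -0.061, and 0.025 and -0.13) and *Crip2* (-0.14 and -0.010) were near 0. With 3 wells and 1 well holding *Calb2*, replicates 3 and 4 say little. There r was positive for 288 of 347 and 215 of 345 genes called higher, beside 72.7% and 66.1% of all genes tested. Among the genes called lower it was positive for 177 and 260 of 381. Of the large rises with a value, 10 of 11 and 2 of 9 were positive, and of the 12 falls 4 and 7. Replicate 4 thus did not show the pattern of replicates 1 and 2.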

How the data were processed

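Single tdT+ DRG neurons of p12 mice (4 plates of 96 wells) and adult mice (5 plates) were analysed, with p0 and e14.5 plates (2 each) for stage levels of *Calb2*. The authors aligned reads with STAR to mm10 (GRCm38), assigned them to NCBI genes, split them by well barcode and collapsed them by UMI, and the deposited values are raw UMI counts per gene and well. They left out wells with few genes or with glial markers and clustered each stage with hicat. Their metadata table gave the plate and cluster of each kept neuron. The merged count table equals the plate tables and was not used, and no row of the tables lacked a gene name.

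From these files, the UMIs of all neurons on a side were added up for each plate. Genes were filtered with filterByExpr, scaled with TMM and tested with edgeR 4.0.16 (glmQLFit, glmQLFTest, R 4.3.3), with the plate as a block and Benjamini-Hochberg adjustment over all genes tested at 0.05. Both sums of a plate come from 1 library, which is where the pairing comes from, and their deviations from the side means correlated at 0.39 to 0.51 across genes. Standard errors are the log2 fold change over the root of the F statistic. Contrasts within each pair of plates and their difference came from the same 8 sums, which share 1 estimate of the spread. DESeq2 1.42.0, its size factors, limma 3.58.1 on log2(mean CPM + 1), no filter, no block, thinning to 7000 UMIs, single plates left out and each plate pair alone were the alternatives. Dropping cluster 1 or neurons over 500 CPM of *Apoe*, cluster 5 against 1 cluster, and adult replicates 3 to 5 alone were added after seeing the data. The edgeR steps were tested on simulated counts. Total UMIs of a plate ran from 1989558 to 5554918, and of the kept p12 neurons from 680212 to 1905013. Intervals and floors (3 counts) cover counting error only.

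The genes named are those the study names for subtypes or identity, the 12 largest rises and falls among called genes with the same direction on all 4 plates (predicted genes and clones, with Gm, LOC or Rik symbols, skipped), up to 4 called genes of each gene list by adjusted p, and up to 6 genes a direction called in the difference between plate pairs. Some genes that met this rule are not reported here. Members and lists were chosen with earlier results of these data known. Gene positions and promoters are from RefSeq, GRCm38.p6.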

Additional observations from a re-analysis of the deposited data

Results flagged for a closer look

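Among 140 groups of 4 plate means tested with Dixon's rule, 9 had 1 plate far from the others. Chance gives about 1 in 20, which is close to this share, so nothing is read from the number. In the *Calb2* neurons these were *Calb1* on replicate 2 (165 CPM), *Pcdh17* on replicate 1 (41.1 CPM), *Vamp2* on replicate 2 (71.3 CPM) and *Hapln4* on replicate 1 (337 CPM). In the others they were *Itga2* (22.5 CPM) and *Pcdh8* (38.6 CPM) on replicate 2, and *Cryba2* (34.7 CPM), *Crip2* (743 CPM) and *Pcp4l1* (129 CPM) on replicate 1. All 9 were the highest of their 4 plates and all lay on replicates 1 and 2.

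The contrast within replicates 1 and 2 differed from that within replicates 3 and 4 for 8 genes, by edgeR's test of the difference itself. As log2 differences of the first minus the second, these were 3.07 for *Tmod3*, 2.85 for *Vstm2b*, 1.49 for *Mt1*, -0.93 for *Pcsk2*, -1.49 for *Ctnnbl1*, -2.35 for *Rph3a*, -2.40 for *Thrsp* and -3.09 for *Pcp4l1*. The pairs differ in clusters, in depth and in the number of wells left out, and these cannot be told apart.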

How the results depend on the processing

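The limits are few neurons and uneven depth: a *Calb2* sum holds 2 to 6 neurons, the *Calb2* side is the deeper one, and thinning leaves about 1 in 6 of the genes to test. Counts of called genes moved most. With DESeq2 they were 321 for the whole comparison, 61 and 67 for the first and second pair of plates, 0 for their difference and 439 in the adult. After thinning they were 98, 35, 50, 0 and 204. Leaving out 1 plate gave 437 to 701, 67 to 344, 28 to 485, 0 to 9 and 698 to 1023. Without the plate as a block (the replicate block), 185 genes were called at p12 and 260 in the adult, all among those called with it. Replicates 1 and 2 alone gave 228. Cluster 5 against cluster 1 alone gave 626. The difference between pairs was called for 5 genes with DESeq2's size factors and 16 with no filter on low counts. Adult replicates 3 to 5 alone gave 438. The other alternatives stayed within 1.5 times. The difference in glial share, as a mean percent, was -0.0187 to 7.90e-04 with 1 plate left out.

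Of the 71 genes in the fit that met the naming rule, 41 kept their direction and their side of the threshold in every alternative run on them. A change of sign was seen in 8, of which *Mt1* and *Tmod3* had been called. On replicates 3 and 4 alone the log2 fold changes were -0.41 for *Runx3*, -0.29 for *Pou4f1*, -0.044 for *Mt1*, -1.70 for *Vstm2b*, -0.059 for *Tmod3* and 1.24 for *Thrsp*. On replicates 1 and 2 alone they were -0.012 for *Whrn* and -0.53 for *Pcp4l1*. Leaving out 1 plate gave -0.019 to 0.54 for *Whrn*, -0.10 to 0.20 for *Pou4f1*, -0.34 to 0.79 for *Vstm2b*, -0.0026 to 2.21 for *Tmod3*, -0.33 to 0.63 for *Pcp4l1* and -1.06 to 0.39 for *Thrsp*. *Pou4f1* was at -0.047 with no filter, and *Vstm2b* at -0.20 with limma and -0.016 without neurons rich in *Apoe*. The cause was not tested.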
